A study of Mus musculus with 4 samples.

Results

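The distal imprinted domain of mouse chromosome 7, which holds the genes H19, Igf2, Ins2, Kcnq1, Kcnq1ot1, Cdkn1c and Phlda2, carried 32 of the 4638 listed binding sites (peaks) of the transcription factor Zac1. A peak was taken as a member when its midpoint lay between 149.6 and 151.2 Mb of chromosome 7 on the mm9 assembly, so the choice used position and no read count. Zac1, also called Plagl1, was mapped by chromatin immunoprecipitation and sequencing (ChIP-seq) in Neuro-2A, a mouse neuroblastoma line whose strain is labelled Swiss Albino. All cells were transfected with pRK5-Zac1, an expression plasmid of the kind driven by a viral promoter, by Lipofectamine, and were fixed 16 hours after transfection. The series has 2 libraries of chromatin precipitated with an in-house anti-Zac1 antibody (ChIP) and 2 libraries of input chromatin from the same kind of cells with no antibody. Cells without the plasmid were not analysed here. Binding of any Zac1 that Neuro-2A may make by itself therefore cannot be told apart from binding of the added protein. Input was the only control, so DNA that the antibody precipitated without Zac1 cannot be told apart either.

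Genomic imprinting leaves some genes active on the copy from 1 parent only. H19 is a maternally expressed long non-coding RNA and its neighbour Igf2 is a paternally expressed fetal growth factor. They compete for enhancers on the far side of H19, past its 3′ end, under a control region just before the H19 promoter that is methylated on the paternal copy and bound by CTCF on the maternal copy. At the other end of the domain, the long non-coding RNA Kcnq1ot1 starts within Kcnq1, a potassium channel gene, on the paternal copy and silences Cdkn1c, an inhibitor of the cell cycle, and Phlda2, a regulator of placental growth, on that copy. Ins2 encodes insulin. Zac1 is itself the product of an imprinted gene, a zinc finger protein that recognises GC-rich DNA, and the series asks where it binds among imprinted genes. The read counts do not separate the maternal from the paternal copy.

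The recognition sequence known for Zac1 has GGGGCC at its core, and the Igf2 promoters that hold these letters are shown because Igf2 was the only landmark gene with a peak inside it. RefSeq promoters (250 bases before to 50 after a gene's start, on GRCm38.p6) were at hand for 3 of the 7 member genes, namely Igf2 with 4 promoters, Kcnq1ot1 with 1 and Phlda2 with 1. GGGGCC or its reverse complement GGCCCC occurred in 2 of these 6 promoters, both of Igf2, and in 25.0% of the 32851 promoters of the table. The forms overlap where GGGG is followed by CCCC. Capitals mark the motif in the sequences that follow, which are written 5′ to 3′ on the minus strand at chr7:142666767-142667066 and chr7:142657447-142657746 of GRCm38.p6, an assembly whose positions differ from those of the peaks.
Igf2 promoter farthest upstream: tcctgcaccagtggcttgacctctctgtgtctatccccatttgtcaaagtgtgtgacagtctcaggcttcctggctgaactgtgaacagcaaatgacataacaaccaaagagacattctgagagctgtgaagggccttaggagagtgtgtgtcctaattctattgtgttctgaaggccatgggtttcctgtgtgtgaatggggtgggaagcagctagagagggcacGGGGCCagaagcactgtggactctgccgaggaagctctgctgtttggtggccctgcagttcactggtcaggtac
Igf2 promoter farthest downstream: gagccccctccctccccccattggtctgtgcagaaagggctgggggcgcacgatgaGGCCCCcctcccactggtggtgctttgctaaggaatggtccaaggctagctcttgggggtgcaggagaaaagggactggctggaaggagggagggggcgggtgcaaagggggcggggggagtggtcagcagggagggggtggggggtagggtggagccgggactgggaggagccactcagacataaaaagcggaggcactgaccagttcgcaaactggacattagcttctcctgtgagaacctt
The motif began 24 bases before the start in the first and 194 bases before it in the second. A match of 6 letters describes the sequence and not a binding site, and whether any peak lies on these promoters was not determined, because the peaks are on the other assembly.

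The table holds 1 ChIP count and 1 input count per peak, so no spread between replicates could be computed. Inside all 4638 peaks there were 388156 ChIP reads and 20321 input reads, of which the 32 peaks of the domain held 3340 and 146. Folds are ChIP reads over input reads after the input was multiplied by 0.6961, the constant recovered from the deposited folds, and intervals are exact 95% intervals that cover counting error only. All peaks were selected by the authors for enrichment on these reads, so the folds describe the listed sites and test nothing.

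Zac1 peaks gathered at the H19 and Igf2 end of the domain. Of the 32 peaks, 18 lay at or before Igf2, in the order of the map, 12 lay between Igf2 and Cdkn1c and 2 lay beyond Cdkn1c. The landmarks used were H19 at 149.761 to 149.764 Mb and Igf2 at 149.84 to 149.85 Mb, both on the minus strand, and Cdkn1c near 150.64 Mb. They are rounded, so distances are given to the nearest kb and a place within an exon, intron or UTR is not stated. Low coordinates lie past the 3′ end of H19, and high coordinates lie before its 5′ end and towards Igf2.

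**Figure D1:**
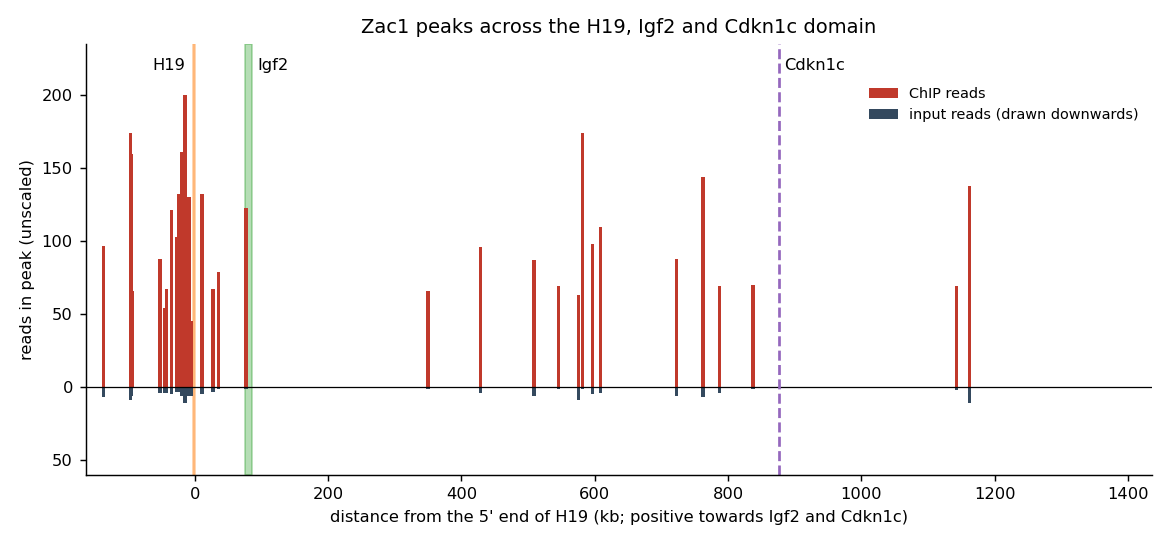
Unscaled reads in each of the 32 peaks against distance from the 5′ end of H19 in kb, with ChIP reads drawn upwards and input reads downwards; shaded bands mark the H19 and Igf2 landmarks and a dashed line marks Cdkn1c. The bars crowd around H19, no bar stands in the 272.8 kb after the Igf2 peak or within 20 kb of Cdkn1c, and the tallest has 200 ChIP reads.

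No listed peak lay inside H19 itself. None lay in the window from 1 to 5 kb before its 5′ end, which was set to take in the H19 control region. The nearest peaks on either side were one 6 kb past the 5′ end, which is 3 kb beyond the end of the gene, and one 11 kb before the 5′ end. A site absent from the list may still bind Zac1 below the listed minimum, since no listed peak had fewer than 16 ChIP reads in its best window on either strand. The list also lacks 50 of the ranks up to 4688, and any peaks with those ranks would not be seen here.

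The 60 kb past the 3′ end of H19 held 10 peaks in a row. They spanned 46.8 kb, from 149711593 to 149758349, with 3.1 to 8.1 kb and a median of 5.3 kb between neighbours. Together they collected 1101 ChIP reads against 52 input reads, or 30.4-fold (23.0 to 41.0). This stretch is the one in which the enhancers shared by H19 and Igf2 are known to lie in mouse.

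The peak at 149754845 to 149755277, 9 kb past the 5′ end of H19, had 130 ChIP reads (70 forward, 60 reverse) and 6 input reads, a 31.1-fold excess (13.9 to 86.4). It was the only peak in the window from 7 to 11 kb past the 5′ end, which was set to take in the endodermal enhancers of H19 and Igf2. The authors' deposited table gives it a log2 fold of 4.85 and a rank in the lower 50% of the list. The enhancers' own positions on mm9 were not used here, so the peak is placed by distance alone.

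The most reads of any peak in the domain, 200 for ChIP (89 forward, 111 reverse) and 11 for input, were at 149748724 to 149749500, 15 kb past the 5′ end of H19. The fold there was 26.1 (14.3 to 53.2), so the large ChIP count came with a large input count. This region was also the longest of the domain, at 777 bp. Farther out, 20 kb past the 5′ end at 149743519 to 149744060, 161 ChIP reads (82 forward, 79 reverse) faced 6 input reads, a 38.6-fold excess (17.3 to 106.6).

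The highest fold in the row belonged to the peak spanning 149739983 to 149740077, 24 kb past the 5′ end of H19, with 132 ChIP reads (64 forward, 68 reverse) and 3 input reads (63.2-fold, 21.2 to 310.4). In the authors' deposited table it had rank 115 and a log2 fold of 5.73, the best rank of the row. The peak 27 kb past the 5′ end, at 149736714 to 149736897, had 103 ChIP reads (50 forward, 53 reverse) and 3 input reads (49.3-fold, 16.4 to 243.1). In the peak 35 kb past the 5′ end, at 149729174 to 149729216, the counts were 121 for ChIP (66 forward, 55 reverse) and 5 for input (34.8-fold, 14.5 to 109.0). The intervals of these 3 folds overlap, so the counts do not order them.

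The fewest ChIP reads of the row were found near its ends. The peak nearest to H19, at 149758285 to 149758349, had 45 ChIP reads (21 forward, 24 reverse) and 6 input reads, or 10.8-fold (4.58 to 30.9), the lowest fold of the row. Towards the far end, the peaks at 149717990 to 149718037 (46 kb past the 5′ end) and 149721058 to 149721149 (43 kb) had 54 and 67 ChIP reads against 4 input reads each. The latter was the least balanced of the row, with 24 forward and 43 reverse ChIP reads. The outermost peak, 52 kb past the 5′ end at 149711593 to 149711738, combined 88 ChIP reads with 4 input reads (31.6-fold, 11.9 to 118.6).

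**Figure D2:**
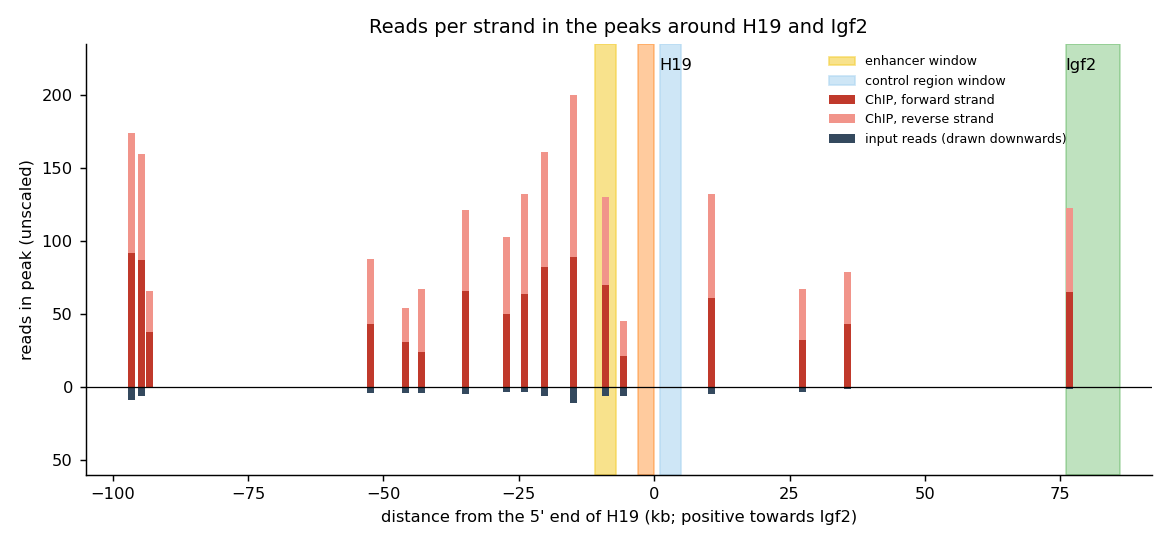
Unscaled reads per strand in the peaks from 105 kb past to 92 kb before the 5′ end of H19, with forward (dark) and reverse (light) ChIP reads stacked upwards and input reads downwards; bands mark H19, Igf2 and the windows set for the endodermal enhancers and the control region. The row of 10 peaks past H19 holds 45 to 200 ChIP reads each, 1 of its peaks stands in the enhancer window, and none stands in H19 or in the control region window.

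Strand summits lay in inverted order in 3 of these 10 peaks, those 9, 15 and 20 kb past the 5′ end of H19, whose regions were 433, 777 and 542 bp long. In the whole list, 12.3% of peaks had inverted summits or summits at the same base. Across the domain there were 4 such peaks (12.5%), the fourth being the last peak of the domain, beyond Cdkn1c. In most other peaks of the domain the listed length equalled the distance between the strand summits. Listed lengths therefore need not be the spans in which reads were counted. One peak of 29 bp, 95 kb past the 5′ end of H19, had 160 ChIP reads but 40 in its busiest window. Whether length changed the counts was not tested. In the busiest window alone, the peaks 9, 15 and 20 kb past the 5′ end of H19 had 49, 45 and 50 ChIP reads. The last peak of the domain had 28 there, and the short peaks at 24 and 35 kb had 52 and 48.

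Beyond the row, 4 more peaks lay 93 to 137 kb past the 5′ end of H19. A tight group of 3 covered 3.3 kb. Its first peak, at 149667539 to 149667594, had 174 ChIP reads (92 forward, 82 reverse) and 9 input reads (27.8-fold, 14.3 to 61.8). Its second, at 149669283 to 149669311, had 160 ChIP reads (87 forward, 73 reverse) and 6 input reads (38.3-fold, 17.2 to 105.9). The last of the group, at 149670739 to 149670860, had 66 ChIP reads and no input read, so only the lower limit of its fold can be given, at 25.0. At the near edge of the domain, from 149626756 to 149626889, 97 reads of ChIP stood against 7 of input (19.9-fold, 9.30 to 50.8).

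Between H19 and Igf2 lay 3 peaks with 278 ChIP and 9 input reads (44.4-fold, 23.0 to 98.1). The peak at 149774493 to 149774634, 11 kb before the 5′ end of H19, had 132 ChIP reads (61 forward, 71 reverse) and 5 input reads (37.9-fold, 15.9 to 118.7). The others were weaker in ChIP reads, with 67 against 3 input reads at 149791413 to 149791511 (27 kb before H19) and 79 against 1 at 149799588 to 149799668 (36 kb). The control region of the pair of genes lies nearer to H19 than any of these 3.

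Igf2 held 1 peak, at 149840702 to 149840824, close to the 3′ end of the landmark. It had 123 ChIP reads (65 forward, 58 reverse) against 1 input read, a 176.7-fold excess (31.1 to 7035). The interval is wide because it rests on a single input read. Rank 551 and a log2 fold of 5.39 stand for it in the authors' deposited table. The landmark of Igf2 is rounded to 10 kb, so its distance of 1 kb from the 3′ end is approximate.

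From the Igf2 peak, 272.8 kb passed to the next listed peak, which lay 264 kb beyond the 5′ end of the Igf2 landmark. Ins2 follows Igf2 directly in the RefSeq gene order of the protein-coding genes and member RNAs, and then come Th, Ascl2, Tspan32, Cd81, Tssc4, Trpm5, Kcnq1 with Kcnq1ot1, and Cdkn1c. No position of Ins2 on mm9 was used here, so whether it falls in this interval is not stated. Th encodes the enzyme that starts catecholamine synthesis, and Ascl2 encodes a transcription factor of the placenta.

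The interval from Igf2 to Cdkn1c held 12 peaks, with 1134 reads of ChIP and 49 of input (33.25-fold, 25.0 to 45.2). They were spread over 487.7 kb with a median of 27.5 kb to the nearest neighbour, against 3.26 kb in the row past H19. Kcnq1 and Kcnq1ot1 are the last genes of this order before Cdkn1c, and which of the 12 peaks lie in them was not determined without gene positions on mm9.

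The strongest site of this interval, at 150345484 to 150345531 and 294 kb before Cdkn1c on the map, had 174 ChIP reads (88 forward, 86 reverse) and 1 input read, a 250.0-fold excess (44.3 to 9929). Its rank of 107 in the authors' deposited table was the best in the domain, and its log2 fold of 5.73 equalled that of the best peak past H19. Both log2 folds come from a window with 52 ChIP reads and no input read, so they reflect ChIP counts alone. Only 5.5 kb from the strongest site, the peak at 150339956 to 150339985 had the lowest fold of the domain, 10.1 (4.97 to 23.0). It had 63 ChIP and 9 input reads. The intervals of these neighbours do not overlap. In the authors' deposited table that weaker neighbour had a strand balance of 0.400, the lowest of the domain, where 1 means equal folds on both strands.

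Next to them, 98 ChIP reads faced 5 input reads in the peak that starts at 150361020, and 110 faced 4 in the peak that starts at 150372355 (39.5-fold, 15.0 to 147.6). Nearer to Cdkn1c, the peak at 150526502 to 150526662 had 144 ChIP reads (73 forward, 71 reverse) and 7 input reads (29.6-fold, 14.0 to 74.8). It held the second most ChIP reads of the interval, 113 kb before Cdkn1c. The other 8 peaks between Igf2 and Cdkn1c, counting the weak neighbour, had 63 to 96 ChIP reads and 1 to 9 input reads. Among them, the best ranked was at 150192397 to 150192494, where 96 ChIP reads faced 4 input reads, with rank 661 in the authors' deposited table.

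No listed peak lay within 20 kb of the Cdkn1c landmark. The nearest, at 150601157 to 150601188 and 39 kb away on the side of Kcnq1, had 70 ChIP reads (38 forward, 32 reverse) and 1 input read (100.6-fold, 17.5 to 4028). From this peak to the next, across Cdkn1c, 305.0 kb passed, the longest gap of the domain. Slc22a18 and Phlda2 follow Cdkn1c in gene order. The peaks beyond it, at 150906138 to 150906166 (69 ChIP and 2 input reads) and 150925722 to 150926474 (138 and 11), were 266 and 286 kb past the landmark. The latter was 753 bp long, and its fold of 18.0 (9.76 to 36.95) was the lower of the pair.

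**Figure D3:**
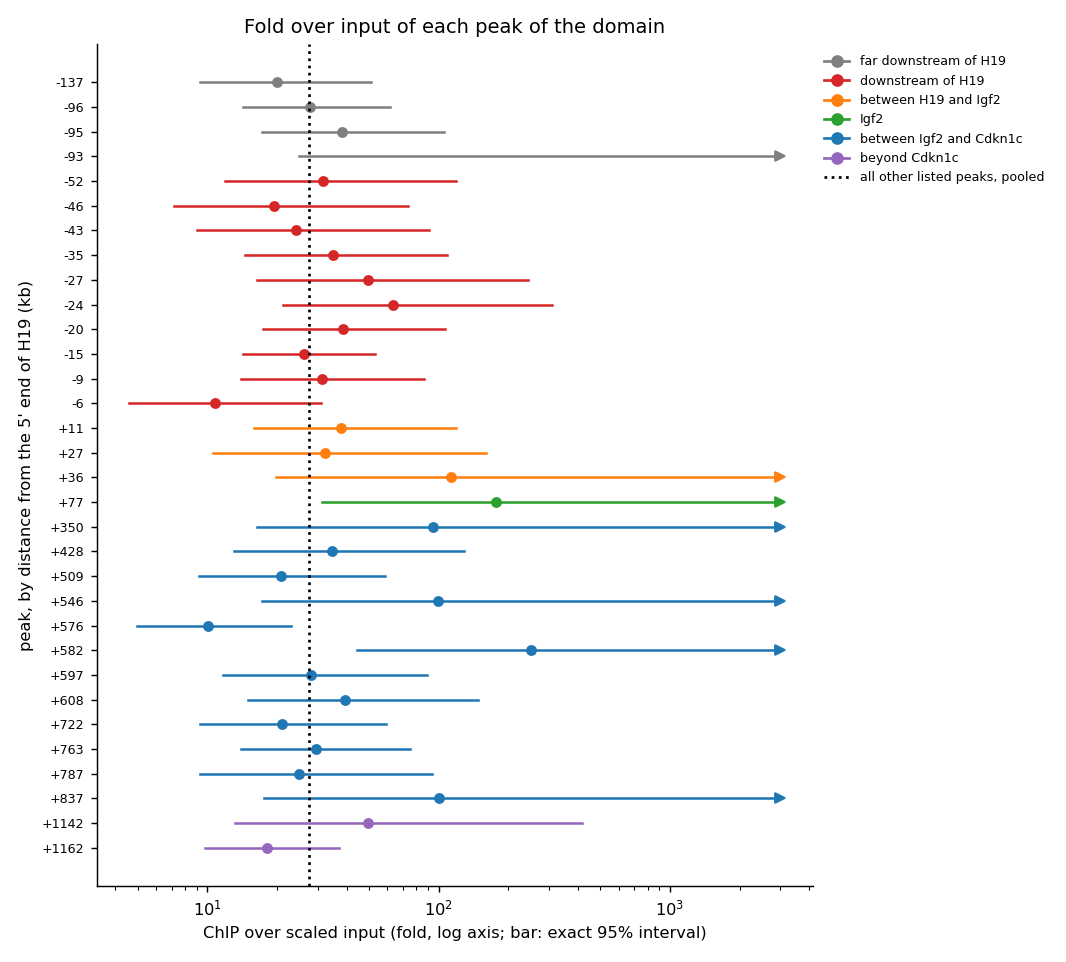
Fold of ChIP over scaled input (log axis) of each peak, named by its distance in kb from the 5′ end of H19 with negative values past the gene, with exact 95% intervals; arrows mark intervals beyond the axis, and the peak without input reads has no point. Folds run from 10.1 to 250.0, most intervals take in the dotted line at 27.4-fold for all other listed peaks, and the peaks at 77 and 582 kb, the latter with the highest fold, lie wholly above it, while the peak at 576 kb lies wholly below.

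Compared with the remaining 4606 peaks, those of the domain held somewhat more ChIP reads at a similar enrichment. The median was 96.5 ChIP reads per peak (interquartile range 69.0 to 132.0) against 75.0 (60 to 97.0) elsewhere and 72.0 in the other 214 peaks of chromosome 7. Input reads averaged 4.56 per peak in the domain, 4.38 in all other peaks and 3.31 on the remainder of chromosome 7. The pooled fold was 32.9 (27.8 to 39.1) in the domain, 27.4 (27.0 to 27.8) in all other peaks and 34.7 (32.2 to 37.4) on the remainder of chromosome 7. The domain's fold was 1.20 times that of all other peaks (exact 95% interval 1.015 to 1.43) and 0.948 times that of the remainder of chromosome 7 (0.789 to 1.15). The first interval barely leaves 1 and the second takes it in, and both cover counting error only.

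No difference in enrichment was detectable for the row past H19 at this depth. Its fold was 0.889 times that of the other 22 peaks of the domain (0.622 to 1.28), 0.915 times that of the peaks between Igf2 and Cdkn1c (0.601 to 1.39) and 1.11 times that of all other listed peaks (0.839 to 1.495). All 3 intervals take in 1, and they leave room for differences of the size of their limits.

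At least 100 ChIP reads were reached by 14 of the 32 peaks (43.8%), against 23.2% of the list. Of these 14, 6 were among the 10 peaks past H19 and 3 among the 12 between Igf2 and Cdkn1c. In the busiest window, which does not grow with region length, the mean was 38.4 ChIP reads in the domain and 36.8 in all other peaks. A lower limit of the fold above 10 was reached by 23 of 32 (71.9%), against 58.3% of the list, by 7 of 10 past H19 and by 8 of 12 between Igf2 and Cdkn1c. The 1000 best ranked peaks of the table included 9 of the 32 (28.1%), against 21.6% of the list by construction. No test was made of these counts, since neighbouring peaks are not replicates.

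**Figure D4:**
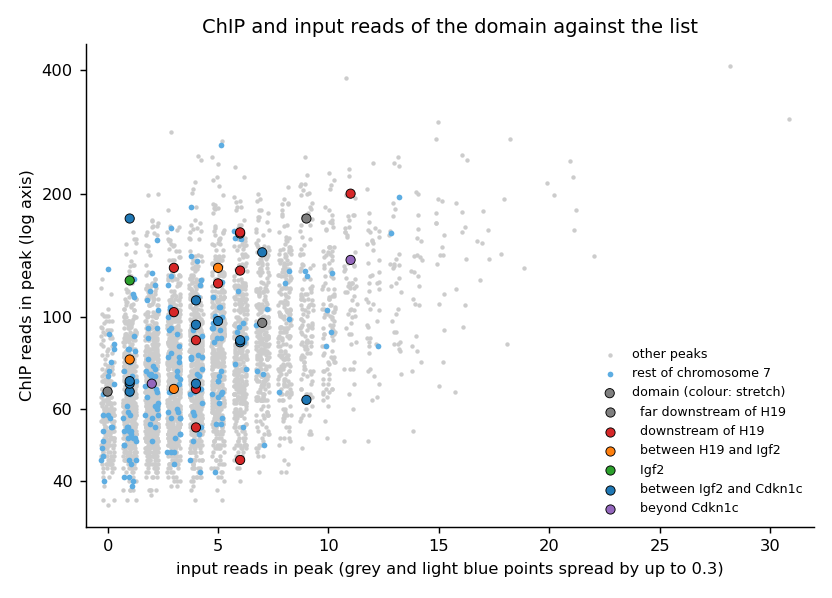
ChIP reads (log axis) against input reads of every listed peak, with the 32 peaks of the domain outlined and coloured by stretch, the remainder of chromosome 7 in light blue and all others in grey; 2 peaks with more than 32 input reads fall outside the axis. The domain lies within the cloud of the list, from 45 to 200 ChIP reads and 0 to 11 input reads.

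Strand balance in the domain was like that of the list. Forward reads made up 50.2% of the domain's ChIP reads (48.5 to 51.95) and 50.1% of those in all other peaks. The reverse summit lay a median of 73.0 bp beyond the forward summit in the domain and 68.0 bp elsewhere. In the authors' deposited table the log2 fold had a median of 5.00 in the domain, from 4.10 to 5.73, and of 4.95 in all other peaks.

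Sites were denser in the domain than on the remainder of its chromosome, given here as a description. It held 13.0% of the 246 peaks of chromosome 7 in 1.6 Mb, which is 20 peaks per Mb against 1.42 per Mb on the remainder of the chromosome up to its last peak. The chromosome 7 bins of the same length below the domain held at most 12 peaks, with a median of 4 in the 44 that held any. Across all chromosomes, 30 of 632 bins with peaks held 32 or more, and the fullest held 97. The edges of the domain were chosen around these genes and with its peaks known, so no test was made. Another peak lay within 10 kb of 17 of the 32 (53.1%), against 41.1% of the list, and these included 10 of 10 past H19 and 2 of 12 between Igf2 and Cdkn1c.

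The edges cut through no group of peaks. The last peak below the domain lay 83.6 kb under its lower edge (149516168 to 149516706, 126 ChIP and 9 input reads), and the first inside lay 26.8 kb above it. At the other end the last peak inside lay 273.9 kb under the upper edge, and the next on the chromosome was at 151444744 to 151444861, with 73 ChIP and 2 input reads.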

How the data were processed

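Per the labels' protocols, sonicated chromatin was precipitated with an in-house antibody, and libraries were made from 10 ng of DNA with 200 bp fragments and 18 PCR cycles. The authors deposited a table with CisGenome column names, per the file headers, on mm9, per the submitters' processing notes. Neither the aligner nor the peak thresholds nor the merging of replicates is given in the sources used. Per the file headers, it holds the authors' read counts per peak and strand, a log2 fold of the largest window, a false discovery rate (a p-value-like quantity, 0 to 6 decimals in all 32 peaks), a strand balance (the ratio of both strands' folds, weaker over stronger) and a rank (a score used to order peaks). Ranks run to 4688, and 50 peaks are not analysed here.

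The input constant of 0.6961 was found as the value under which the deposited log2 folds (pseudocount 1) arise from whole-number counts. It fitted 4638 of 4638 peaks, but only the 738 whose folds need input reads inform it. The folds of all others arise with no input read, so they fit under any constant. Folds, exact (Clopper-Pearson) intervals and ratios of folds with exact conditional intervals were computed with scipy 1.17.1 and python 3.11.15, and the code was tested on simulated data. PCR copies of a molecule may be counted more than once. With 1 value per group no p-value was computed. Neighbours and bins use peak midpoints. Depth is known only inside peaks, as no library totals were used. The domain, stretches, windows, motif and call limits were chosen with earlier results of these data known. The rule for named peaks was those in or near H19, Igf2 and Cdkn1c, the row past H19, the 10 best ranked, the 5 with most ChIP reads and the outermost. Others were named after their values were seen. Gene order came from RefSeq (GRCm38.p6), and no position was converted.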

Additional observations from a re-analysis of the deposited data

How the results depend on the processing

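The 32 peaks of the domain became 19 in the better ranked 50% of the list, 9 in the 1000 best ranked and 19 after joining within 10 kb. They stayed at 32 after joining within 1 kb and were 28 with the edges moved in by 100 kb. The domain's fold of 32.9 was 22.9 without scaling of the input, 21.3 in the busiest windows, 41.2 in the better ranked 50% and 47.2 in the 1000 best ranked. It was 33.4 without the peak with most ChIP reads. The 30.4-fold excess past H19 was 21.2 without scaling and 18.6 in the busiest windows, and stayed within its interval up to 30 kb (31.7) and in the better ranked 50% (36.1). The share of peaks with a near neighbour, 53.1% within 10 kb, was 31.25% within 5 kb and 68.75% within 20 kb. The forward share was 50.9% with at least 20 reads per strand. The promoter motif was in 27.3% of genes when any promoter counted, an alternative chosen after seeing the data. Leaving out the scaling changes every fold by the same constant. In 4636 of 4637 steps down the ranking the deposited window fold did not rise, but folds of whole regions need not follow it. The busiest window was taken for ChIP and for input separately, so the folds in the busiest windows need not describe a common window. For the ranked subsets and the busiest windows the cause of the change was not tested. No paired analysis was possible because each peak comes with only 1 number for ChIP and 1 for input, which also kept any replicate from being left out. The list starts at 16 ChIP reads per strand, and weaker sites are not visible at this depth.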
